A study of Iris tectorum with 6 samples.

Results

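The enzymes that build and dismantle chlorophyll were examined in leaves of Iris tectorum, a rhizomatous garden iris, kept in swine wastewater in a glasshouse, with water standing 12.3 ± 0.8 cm high per the labels' protocols. The plants stood in the wastewater either by themselves (plant alone) or with a colonial green microalga, Dictyosphaerium sp., added (co-culture), and the labels give no plant age, light regime or day of harvest. Both groups received the wastewater, so the comparison is of the alga and not of the wastewater. The labels list 3 samples per group, and 5 libraries were analysed, plant alone 2 and 3 and co-culture 1, 2 and 3, while plant alone 1 was not analysed here. Nothing in the labels places the samples in separate cultures, so p-values measure only the spread between these samples, which may be technical.

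Members were the unigenes, that is assembled transcripts, whose best protein hit in the nr database was named with a word for an enzyme of chlorophyll synthesis or breakdown. The words found 98 of 111791 unigenes with reads. Of these, 58 named a synthesis enzyme, 36 a breakdown enzyme and 4 a related protein that belongs to neither. The names were assigned by the hit and not by function in iris. The hits came from 15 genera, most often Asparagus (35 members), and 95 of the 98 were to land plants. The other 3 were protochlorophyllide reductase hits to the dinoflagellate Symbiodinium, all under 3 FPKM (a fragment count corrected for transcript length and for depth) in every library. They were lower in all co-culture libraries than in plant alone, as were 17.2% of all unigenes tested. Their counts were few, at most 12.6 in any library, and only CL2890.Contig5 passed the low-count filter. These 3 were left out of the enzyme sums below. In 24 assembly clusters there were 68 members, and contigs of a cluster can share reads. For that reason each enzyme was also tested as the sum of its land plant members.

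Chlorophyll is made in the plastid from glutamate. Glutamyl-tRNA reductase starts the path and is its main point of control, a series of enzymes common to heme and chlorophyll then leads to protoporphyrin IX, and magnesium chelatase, with its ChlH, ChlI and ChlD subunits, inserts magnesium and commits the ring to chlorophyll. Protochlorophyllide reductase of flowering plants needs light, chlorophyllide a oxygenase makes chlorophyll b, and chlorophyll synthase adds the phytol tail. In ageing or stressed leaves chlorophyll b is first reduced by NYC1 and NOL, the stay-green protein (SGR) removes magnesium, pheophytinase removes phytol, and pheophorbide a oxygenase opens the ring, which ends the green colour.

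The libraries held between 18616931 and 22975621 expected counts, and members took between 0.123% (co-culture 3, plant alone 3) and 0.276% (co-culture 2) of them. A count of 3, used here as the floor of detection, equalled between 0.124 and 0.172 CPM (counts scaled to the library total, with TMM factors), for counting error only. The spread was wide, with a biological coefficient of variation of 0.773. All 6 leaf marker lists had reads in every library and were highest in co-culture 2, and all but carbonic anhydrase were lowest in co-culture 3. The share of counts on 64 chlorophyll a-b binding unigenes, the antenna proteins that hold most of the pigment, was 0.724% and 0.444% in plant alone 2 and 3, and 1.77%, 2.16% and 0.350% in co-culture 1, 2 and 3. On 9 unigenes of the Rubisco small subunit the shares were 0.197% and 0.0715%, and 0.252%, 0.581% and 0.0294%. Green algal hits (383 unigenes) took 0.199% to 0.229% of co-culture counts and 0.278% and 0.337% of plant alone counts, so no larger share of algal hits accompanied the added alga. In a bulk leaf sample, fewer green cells and less RNA per green cell cannot be told apart.

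No chlorophyll enzyme passed the test between co-culture and plant alone. Of the 13 synthesis enzymes, 9 had a higher fitted level in co-culture, with the magnesium chelatase subunits ChlH and ChlD farthest from 0, and of the 5 breakdown enzymes 4 had a lower one, with stay-green farthest from 0. Among all 44163 enzyme sums and clusters, edgeR called 0 at adjusted p 0.05 (Benjamini-Hochberg; 0%), 49.6% were fitted higher, and 3.07% higher and 6.35% lower had an unadjusted p under 0.05. No synthesis or breakdown sum had an unadjusted edgeR p under 0.05, and the edgeR adjusted p ranged from 0.543 to 0.958 for synthesis and from 0.579 to 0.863 for breakdown. DESeq2, which called 0.632% of entries higher and 1.42% lower, called none of the enzymes either.

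**Figure D1:**
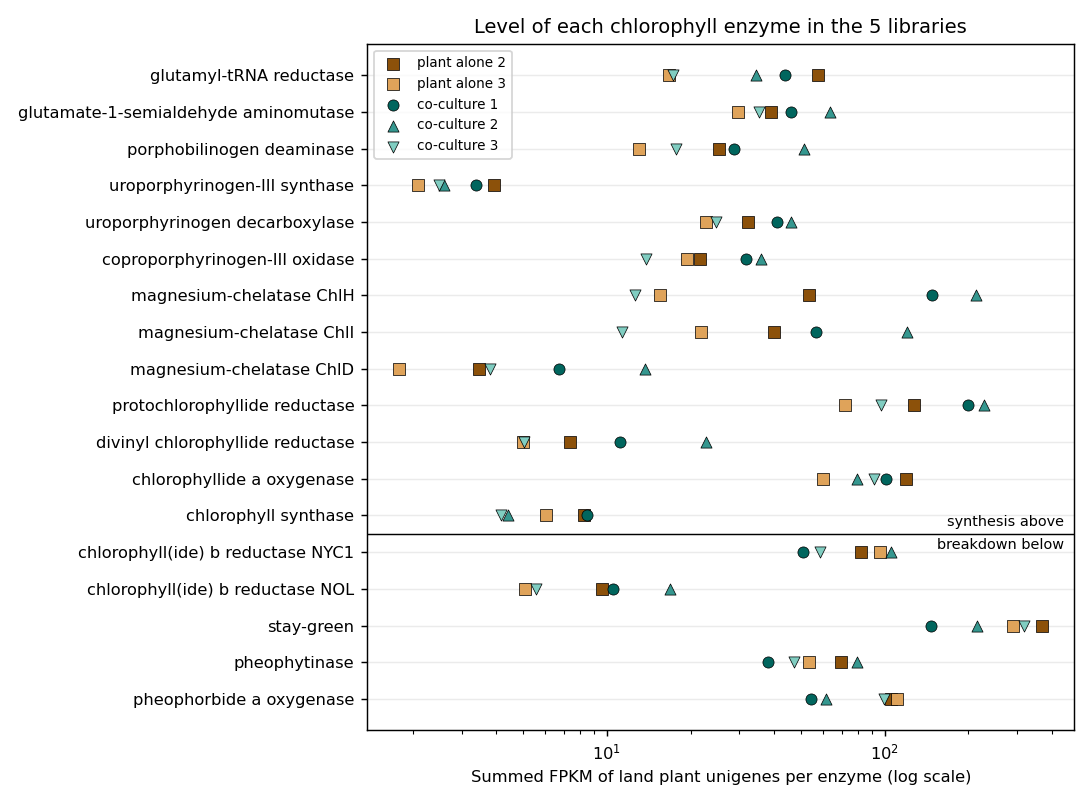
Summed FPKM of the land plant unigenes of each enzyme (log axis) in plant alone 2 and 3 (squares) and co-culture 1 (circles), 2 (upward triangles) and 3 (downward triangles). Co-culture 2 lies to the right for most synthesis enzymes, and co-culture 3 lies near or to the left of the plant alone libraries.

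At the head of the path, glutamyl-tRNA reductase had no common direction. Its 3 contigs summed to 116 and 37.6 CPM in plant alone 2 and 3 and to 95.2, 83.1 and 31.3 CPM in co-culture 1, 2 and 3, with a log2 fold change of -0.14 ± 0.66 (SE; edgeR adjusted p = 0.956). The 2 groups overlapped, and the sign turned without plant alone 2 (0.92) or co-culture 3 (0.28). The contig with the highest mean FPKM (CL8382.Contig2) took 20.8% of the enzyme's counts in plant alone 2 and 64.3%, 70.6%, 67.1% and 44.3% in the other libraries, and the contig CL8382.Contig3 took 67.5% there. These are contigs of 1 cluster, so the exchange may not be between genes. Glutamate-1-semialdehyde aminomutase (Unigene20749), which makes the first committed precursor of all tetrapyrroles, had 72.8 and 59.5 CPM in plant alone and 88.6, 137 and 57.5 CPM in co-culture (log2 fold change 0.51 ± 0.41, edgeR adjusted p = 0.695). Co-culture 3 lay below both plant alone libraries and co-culture 1 and 2 above them.

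The enzymes from porphobilinogen to the heme and chlorophyll branch point had that same order in part. Porphobilinogen deaminase, which joins the pyrroles into a chain, had 37.99 and 21.2 CPM in plant alone and 44.2, 88.4 and 23.3 CPM in co-culture (log2 fold change 0.81 ± 0.62, edgeR adjusted p = 0.678). Uroporphyrinogen decarboxylase, with 10 unigenes, summed to 50.7 and 39.95 CPM against 72.2, 94.8 and 38.3 CPM (0.59 ± 0.43, edgeR adjusted p = 0.662). Both were highest in co-culture 2, and co-culture 3 lay at the level of plant alone 3. Coproporphyrinogen-III oxidase, which oxidises the ring's side chains, had 26.3 and 26.9 CPM against 44.9, 59.4 and 17.4 CPM (0.61 ± 0.53, edgeR adjusted p = 0.717), so co-culture 3 was the lowest library. Uroporphyrinogen-III synthase (Unigene32987), which closes the ring, was low throughout, at 5.25 and 3.01 CPM against 4.67, 4.00 and 2.92 CPM (-0.10 ± 0.47, edgeR adjusted p = 0.958). Its groups overlapped, and its sign turned without plant alone 2 or co-culture 3.

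Within these enzymes the leading contigs had the direction of the sums. CL6812.Contig3 held 81.3% to 90.0% of the porphobilinogen deaminase counts in every library. For uroporphyrinogen decarboxylase, Unigene51972 had the highest mean FPKM, with 5.78 and 5.74 FPKM in plant alone and 13.8, 17.02 and 3.57 FPKM in co-culture. A less abundant decarboxylase unigene, Unigene51971, had the smallest p of all synthesis members, with 1.54 and 1.44 CPM against 6.00, 6.37 and 2.72 CPM (log2 fold change 1.74 ± 0.60, edgeR adjusted p = 0.628). All 3 co-culture libraries lay above plant alone for it. For coproporphyrinogen-III oxidase, CL12309.Contig2 had 17.4 and 16.9 CPM against 28.5, 41.8 and 13.3 CPM.

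The magnesium chelatase subunits ChlH and ChlD had the largest fold changes of the synthesis sums, and the differences lay in 2 of the 3 co-culture libraries. ChlH, the large subunit that binds the porphyrin, summed over 4 unigenes to 229 and 71.9 CPM in plant alone 2 and 3 and to 645, 1030 and 45.6 CPM in co-culture 1, 2 and 3. Co-culture 2 was thus 22.6-fold above co-culture 3 within the group, and the co-culture mean was 3.81-fold the plant alone mean (573 ± 496, SD, n = 3, against 151 ± 111, n = 2). The log2 fold change was 1.93 ± 1.28 (edgeR adjusted p = 0.634), 1.19 without co-culture 2 and 3.01 without plant alone 2. ChlI (Unigene26842), an ATPase subunit, had 61.5 and 36.4 CPM against 90.6, 216 and 15.4 CPM, with a log2 fold change of 1.13 ± 1.02 (edgeR adjusted p = 0.726) that was 0.11 without co-culture 2. ChlD, the subunit that links ChlI to ChlH, was the least abundant, with 6.34 and 4.03 CPM against 12.5, 29.9 and 5.56 CPM. Its log2 fold change of 1.62 ± 0.77 had the smallest adjusted p of the synthesis sums (edgeR adjusted p = 0.543), and was 0.81 without co-culture 2. All 3 subunits were highest in co-culture 2 and next in co-culture 1, with ChlH and ChlI lowest in co-culture 3.

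Among the contigs of the chelatase subunits, CL1777.Contig1 of ChlH had 30.3 and 4.42 FPKM in plant alone and 90.8, 122 and 3.82 FPKM in co-culture, in the order of the sum. Its share of ChlH counts was 55.5% and 27.9% in plant alone and 61.5%, 57.7% and 31.0% in co-culture, so the libraries with less ChlH took more of it from the second contig of the cluster. The unclustered Unigene29029, a part of ChlH with 1094 bases, had 0.994 and 1.20 CPM against 7.31, 13.8 and 1.33 CPM (log2 fold change 2.76 ± 1.08, edgeR adjusted p = 0.628). Its groups did not overlap, by a narrow margin in co-culture 3. For ChlD, CL13474.Contig1 had 4.54 and 2.75 CPM against 7.97, 23.1 and 4.04 CPM.

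Protochlorophyllide reductase was among the most abundant of the synthesis enzymes per length. Its 4 land plant unigenes summed to 179 and 111 CPM in plant alone and to 294, 386 and 123 CPM in co-culture (log2 fold change 0.88 ± 0.56, edgeR adjusted p = 0.617), and CL11212.Contig1 alone had 96.9 and 59.7 FPKM against 155, 208 and 77.5 FPKM. Co-culture 3 lay between the plant alone libraries. Divinyl chlorophyllide reductase (Unigene21790), which turns a vinyl group into an ethyl group, had 11.2 and 8.23 CPM against 17.7, 40.2 and 6.75 CPM (1.15 ± 0.76, edgeR adjusted p = 0.635), a value that was 0.34 without co-culture 2. Co-culture 3 was its lowest library.

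The last 2 steps did not have the order of the chelatase. Chlorophyllide a oxygenase, with 17 unigenes the most divided enzyme, summed to 179 and 103 CPM against 153, 134 and 109 CPM (log2 fold change -0.09 ± 0.34, edgeR adjusted p = 0.939). Every co-culture library lay between the plant alone libraries, and the sign turned without plant alone 2 (0.39) or co-culture 3 (0.09). Its unigenes went different ways. Unigene17001, with the highest mean FPKM, had 34.9 and 21.1 CPM against 45.7, 33.5 and 24.8 CPM. Unigene17002 had 7.20 and 3.58 CPM against 11.3, 25.9 and 9.82 CPM, higher in every co-culture library (1.54 ± 0.64, edgeR adjusted p = 0.628), and CL824.Contig5 had 24.0 and 21.4 CPM against 14.5, 8.58 and 14.3 CPM, lower in every one (-0.87 ± 0.35, edgeR adjusted p = 0.628). CL4851.Contig6 had 7.92 CPM in plant alone 2 and under 1 CPM in each of the other libraries, with none in plant alone 3 and co-culture 3, so its log2 fold change of -3.26 rested on 1 library and turned without it. Chlorophyll synthase (Unigene1541) had 12.6 and 9.89 CPM against 13.4, 7.77 and 5.57 CPM (-0.34 ± 0.47, edgeR adjusted p = 0.824), with co-culture 1 highest and co-culture 3 lowest.

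**Figure D2:**
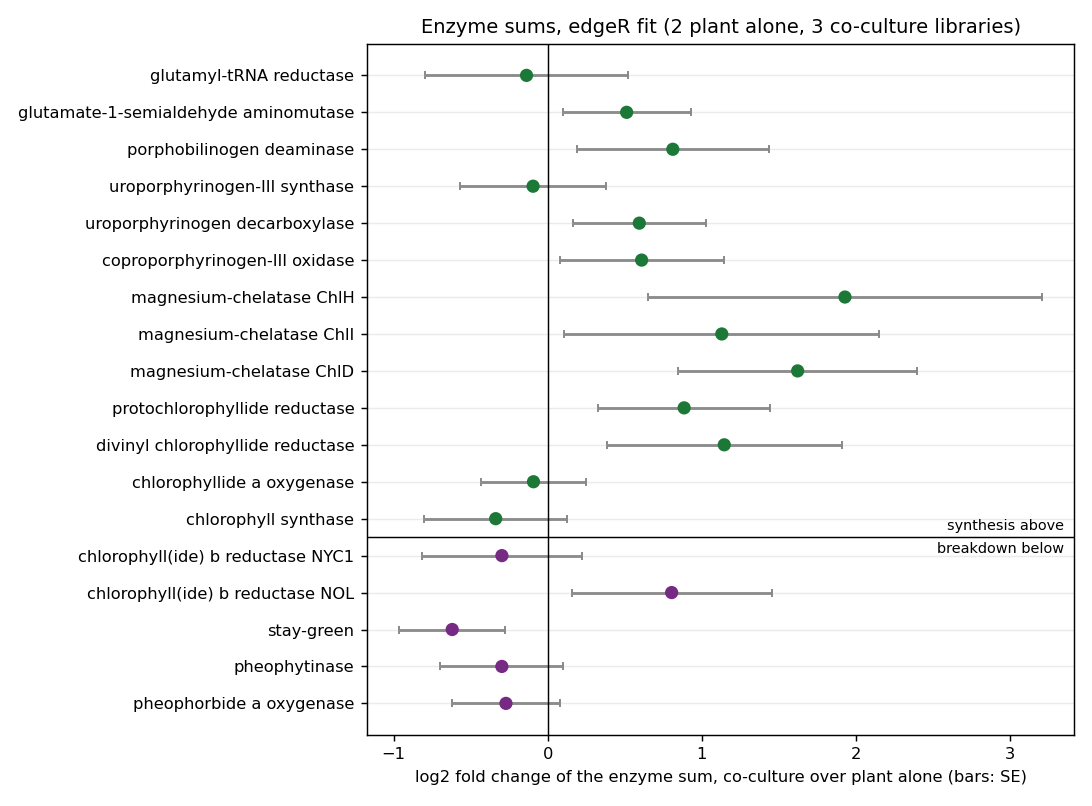
Log2 fold change of each enzyme sum, co-culture over plant alone, from the edgeR fit, with bars of 1 SE (2 plant alone and 3 co-culture libraries). Synthesis sums (upper 13) run from -0.34 to 1.93 and breakdown sums (lower 5) from -0.62 to 0.80, and none had an adjusted p under 0.05.

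Co-culture 2 was the highest library for 9 of the 13 synthesis enzymes and co-culture 3 the lowest for 9, plant alone 3 being the lowest for the other 4. Across all enzyme sums and clusters, co-culture 2 was highest in 24.2% and co-culture 3 lowest in 22.7%. All enzymes were read from the same libraries, so these counts are not independent. Without co-culture 3, 7 of the 13 synthesis sums had an unadjusted edgeR p under 0.05 in the higher direction, where 4.63% of all entries did, and the smallest adjusted p among them was 0.213 (ChlD). These were ChlH, ChlI, ChlD, protochlorophyllide reductase, divinyl chlorophyllide reductase, coproporphyrinogen-III oxidase and uroporphyrinogen decarboxylase. Of the 5 breakdown sums, NOL was also higher at that threshold, as was the relative of PTC52, so the result was not limited to synthesis. In that fit edgeR called 230 entries in all, none of them a chlorophyll enzyme. Co-culture 3 was the lowest co-culture library for each of the 7 synthesis sums, so leaving it out had to widen their difference. The matching count was 0 of 13 synthesis sums without co-culture 1 and 0 of 13 without co-culture 2. The shares of the antenna and Rubisco unigenes moved with the synthesis sums over the libraries, high in co-culture 1 and 2 and low in co-culture 3, and their part in the result was not tested.

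Stay-green was the most abundant breakdown enzyme and the only breakdown or synthesis sum whose groups did not overlap on the CPM scale. Its 11 unigenes summed to 287 and 267 CPM in plant alone 2 and 3 and to 122, 188 and 230 CPM in co-culture 1, 2 and 3. Every co-culture library lay below both plant alone libraries, as did 18.3% of all entries, and the log2 fold change was -0.62 ± 0.34 (edgeR adjusted p = 0.579). It was -0.31 without co-culture 1 and between -0.53 and -0.78 without any other library. On the summed FPKM scale the groups overlapped, with 369 and 289 FPKM against 146, 215 and 317 FPKM, because co-culture 3 then lay above plant alone 3.

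A fragment of 417 bases, Unigene60105, made up much of that FPKM. It had 102 and 81.2 CPM in plant alone and 40.9, 69.5 and 72.2 CPM in co-culture, with a log2 fold change of -0.59 ± 0.36 (edgeR adjusted p = 0.680), and its 262 FPKM in plant alone 2 was the highest value of any member. FPKM of so short a fragment depends strongly on the effective length used. Unigene4898, a long stay-green unigene, had the smallest p of all members, with 34.1 and 49.4 CPM against 15.96, 21.3 and 21.3 CPM (-1.09 ± 0.31, edgeR adjusted p = 0.628). Unigene60104 had 15.9 and 10.4 CPM against 4.47, 3.79 and 9.23 CPM (-1.17 ± 0.53, edgeR adjusted p = 0.628). For both, all co-culture libraries lay below plant alone, on the CPM scale.

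NYC1 and NOL, which convert chlorophyll b, differed from each other in level and order. NYC1 summed over 6 unigenes to 135 and 176 CPM in plant alone and to 86.1, 215 and 77.4 CPM in co-culture (log2 fold change -0.30 ± 0.52, edgeR adjusted p = 0.863), so co-culture 2 was highest and the others were below plant alone. Its main contig, CL8882.Contig2, held between 63.7% and 84.95% of the enzyme's counts and had 112 and 151 CPM against 68.2, 174 and 49.4 CPM. Without co-culture 2 the NYC1 log2 fold change was -0.90, and without co-culture 3 it was 0.01. NOL had 12.6 and 7.60 CPM against 16.1, 29.7 and 7.20 CPM (0.80 ± 0.65, edgeR adjusted p = 0.694) and, with co-culture 2 highest and co-culture 3 lowest, had the order of the chelatase and not that of stay-green. Its main contig CL13240.Contig3 had 10.01 and 5.76 CPM against 9.37, 18.4 and 4.66 CPM. The contig CL13240.Contig1 of the same cluster had none and 0.789 CPM in plant alone and 5.11, 9.60 and 1.94 CPM in co-culture, without overlap (3.78 ± 1.71, edgeR adjusted p = 0.628).

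Pheophytinase, which removes the phytol tail, had 139 and 120 CPM in plant alone and 72.5, 157 and 85.2 CPM in co-culture (log2 fold change -0.30 ± 0.40, edgeR adjusted p = 0.817), so co-culture 2 was again the highest. It held the one member that DESeq2 called, CL8198.Contig2, with no reads in plant alone 2 or 3 and 12.1, 0.986 and 0.250 CPM in co-culture (DESeq2 adjusted p = 0.0241, edgeR adjusted p = 0.628). DESeq2 called 0.916% of all unigenes higher and 1.01% lower. Against 3 counts over these 2 plant alone libraries this was at least 54.2-fold higher, and without co-culture 1 at least 7.53-fold. That bound does not hold for the plant alone group as a whole: in the authors' deposited table, whose plant alone reads include the library not analysed here, the pooled counts of this contig were 195.5 in plant alone and 297.6 in co-culture, with a log2 ratio of 0.44 that the authors did not call. Most of its reads came from co-culture 1, the library in which the main contig of the same cluster, CL8198.Contig3, was lowest. CL8198.Contig3 had 109 and 110 CPM in plant alone against 40.2, 92.7 and 70.1 CPM in co-culture, all lower (-0.69 ± 0.41, edgeR adjusted p = 0.673). In a different cluster, CL13576.Contig1 had 5.53 and 2.88 CPM against 7.33, 23.6 and 5.93 CPM (1.55 ± 0.80, edgeR adjusted p = 0.643), higher in every co-culture library.

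Pheophorbide a oxygenase, the step after which the breakdown products are no longer green, had 120 and 172 CPM in plant alone and 83.7, 128 and 152 CPM in co-culture. The groups overlapped (log2 fold change -0.27 ± 0.35, edgeR adjusted p = 0.811), and the value was 0.02 without co-culture 1. On the summed FPKM scale they did not overlap, with 106 and 111 FPKM against 54.4, 61.5 and 99.0 FPKM. The contig CL7723.Contig5, of 743 bases, had 43.0 and 34.1 CPM against 11.4, 1.56 and 8.19 CPM (-2.45 ± 0.80, edgeR adjusted p = 0.628), while CL7723.Contig1 of the same cluster had 41.5 and 123 CPM against 50.4, 104 and 125 CPM (0.18 ± 0.63, edgeR adjusted p = 0.955). CL7723.Contig5 took 35.5% and 19.6% of the enzyme's counts in plant alone and 13.6%, 1.22% and 5.38% in co-culture. The short contig was lower in every co-culture library and the sum was not, and reads of these contigs may be shared.

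**Figure D3:**
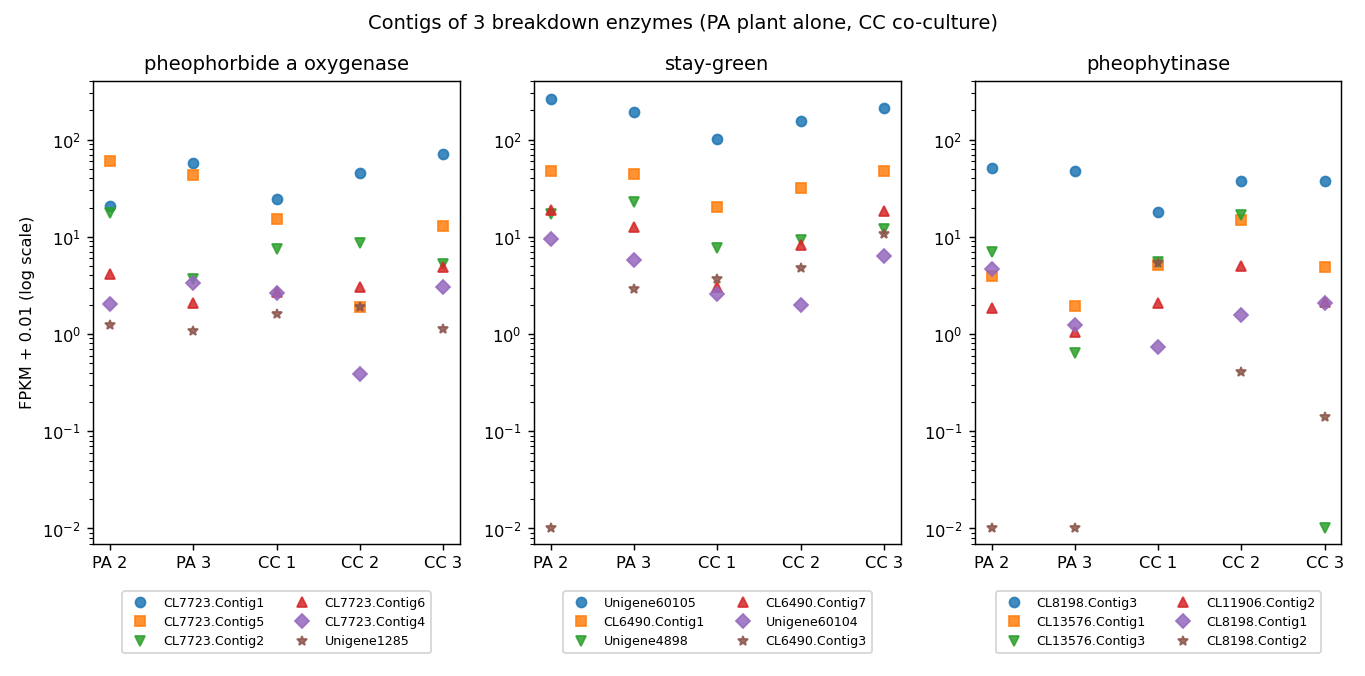
FPKM plus 0.01 (log axis) of the 6 most abundant unigenes of pheophorbide a oxygenase, stay-green and pheophytinase in plant alone 2 and 3 (PA) and co-culture 1, 2 and 3 (CC); points at the bottom had no reads. CL7723.Contig5 is lower in all co-culture libraries while CL7723.Contig1 is not, and CL8198.Contig2 has no reads in plant alone 2 and 3 and most of its reads in co-culture 1.

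Read as single unigenes, members passed the low-count filter in 85 of 98 cases, and 84 of these had a land plant hit. Across all 69984 unigenes tested edgeR called 0 (0%; smallest adjusted p = 0.628) and DESeq2 called 1294, and 5036 had an unadjusted edgeR p under 0.05. Of 50 synthesis unigenes tested, 32 (64%) were fitted higher in co-culture and 18 lower, where 50.1% of all unigenes were higher and 49.9% lower, and 2 higher and 0 lower had an unadjusted p under 0.05 (background 2.75% and 4.45%). Of 32 breakdown unigenes, 17 (53.1%) were higher and 15 lower, with 1 higher and 2 lower at an unadjusted p under 0.05. All co-culture libraries lay above plant alone for 10% of the synthesis and 12.5% of the breakdown unigenes against 12.8% of all, and below for 6% and 25% against 17.2%. Unigenes that pass the filter only through the group where they are abundant had to differ, so these counts are a description. Without co-culture 3, 15 of 50 synthesis unigenes had an unadjusted p under 0.05, all higher (smallest adjusted p = 0.194), where 3.41% of all unigenes did. Without co-culture 1 it was 0 of 48 synthesis unigenes, and without co-culture 2 it was 0 of 47. The members at an unadjusted p under 0.05 were 5 in number (Unigene51971, Unigene29029, CL8198.Contig2, Unigene4898 and CL7723.Contig5), and 2, 3 and 18 without co-culture 1, co-culture 2 and co-culture 3. Leaving out a plant alone library leaves that group without replication, so no such count is given here.

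**Figure D4:**
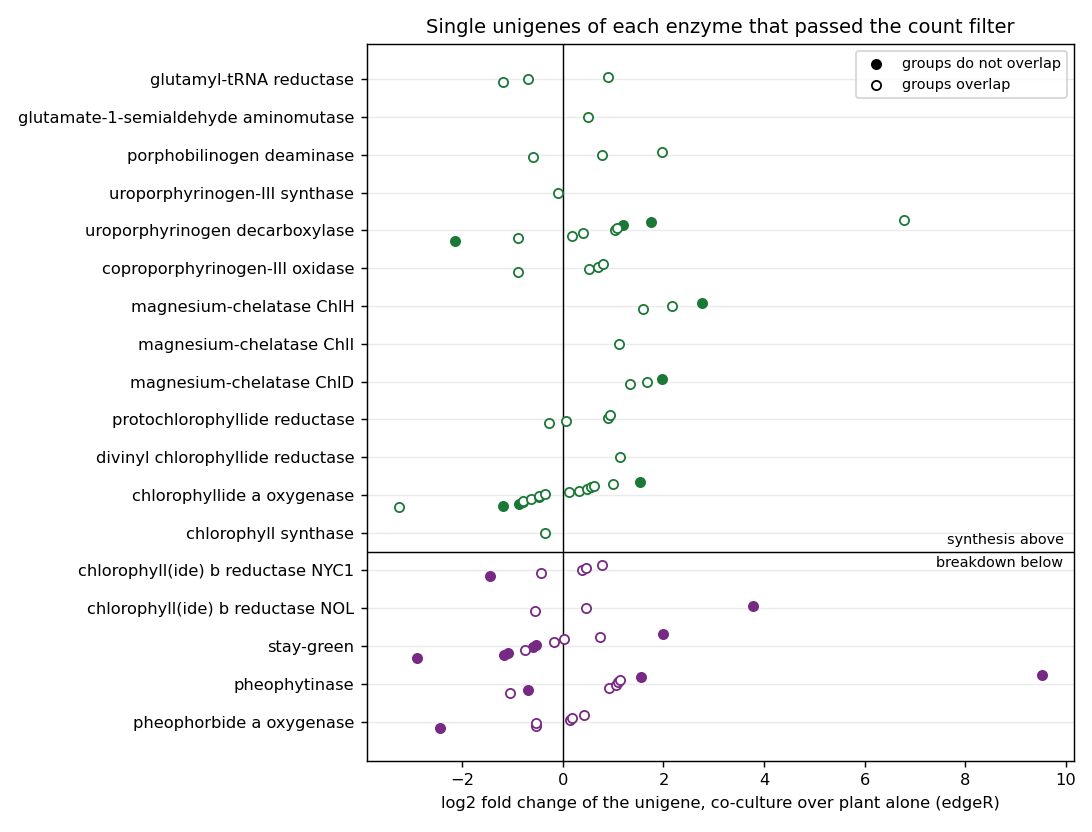
Log2 fold change of each land plant unigene that passed the count filter, by enzyme (edgeR, co-culture over plant alone); filled points are unigenes whose groups do not overlap in CPM. Synthesis (green) has 32 of 50 points to the right of 0, and breakdown (purple) 17 of 32. The farthest point to the right, CL8198.Contig2 of pheophytinase, had no reads in plant alone 2 and 3, so its fitted value depends on the prior count.

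Synthesis compared with breakdown gave a larger value in co-culture 1 and 2 and not in co-culture 3. Summed FPKM of the synthesis enzymes was 539 and 285 in plant alone 2 and 3 and 725, 916 and 336 in co-culture 1, 2 and 3. That of the breakdown enzymes was 636 and 555 against 300, 479 and 527. Breakdown, as the sum of these 5 enzymes, was thus lower in every co-culture library on this scale. On the CPM scale 18.3% of all enzyme sums and clusters lay below plant alone in this way. Of the breakdown genes outside this sum, described below, chlorophyllase and red chlorophyll catabolite reductase were higher in every co-culture library. TIC55 and 7-hydroxymethyl chlorophyll a reductase overlapped between groups. By enzyme in CPM, however, co-culture 2 was the highest library for 3 of the 5 breakdown enzymes. In summed FPKM, synthesis was not higher in every co-culture library. The ratio of synthesis to breakdown was 0.847 and 0.514 in plant alone and 2.42, 1.91 and 0.638 in co-culture. Co-culture 3 lay between the plant alone libraries, so the groups overlapped, and the difference of the log2 ratios, 1.12, compares with a pooled SD of 0.888. It was 0.74 without co-culture 1, 0.76 without plant alone 3 and 1.70 without co-culture 3. On the CPM scale the ratio was 1.43 and 0.717 against 4.14, 3.22 and 0.872, in the same order, with plant alone 2 then above 1. Leaving out the stay-green fragment, a choice made after its values were seen, the ratio was 1.44 and 0.788 against 3.67, 2.84 and 1.07. The order of the libraries was unchanged by this, but every library except plant alone 3 then lay above 1.

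**Figure D5:**
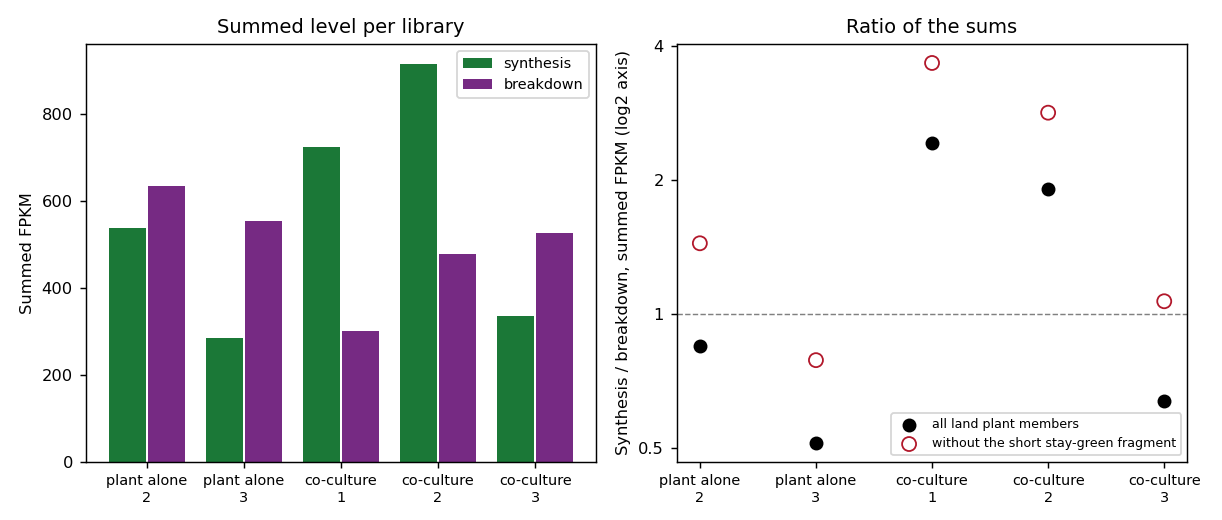
Left, summed FPKM of synthesis (green) and breakdown (purple) land plant unigenes per library; right, their ratio on a log2 axis with (filled) and without (open) the short stay-green fragment. Synthesis exceeds breakdown in co-culture 1 and 2, at ratios of 2.42 and 1.91, and not in co-culture 3, at 0.638, or in plant alone.

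With every unigene weighted alike the contrast was smaller. The median log2 fold change was 0.51 for synthesis and 0.08 for breakdown, where the median of all unigenes tested was 0.001, and setting the unigenes without reads in plant alone 2 and 3 at their bound left both medians as they were. The synthesis median was 0.16 without co-culture 2, 0.94 without plant alone 2 and between 0.38 and 0.72 without any other library. For breakdown the sign was not stable, at 0.26 and 0.50 without co-culture 1 and plant alone 2, and -0.14, -0.16 and -0.15 without co-culture 2, co-culture 3 and plant alone 3. Per library, the synthesis medians relative to the plant alone mean were 0.29 and -0.29 in plant alone 2 and 3, and 0.73, 0.82 and -0.27 in co-culture. The breakdown medians lay between -0.16 and 0.16 in all 5 libraries.

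In the authors' deposited table, 34.5% of the 55 synthesis unigenes were marked as higher in co-culture and 12.7% as lower, and of the 36 breakdown unigenes 16.7% were higher and 41.7% lower. Over all unigenes the authors' deposited table marked 16.6% higher and 13.8% lower. Stay-green had 9 of 11 unigenes marked lower there and magnesium chelatase ChlH and ChlD had 3 of 4 and 3 of 3 marked higher. That table compares reads pooled per group, so its calls do not include the spread between libraries, and its plant alone values also hold reads of the library not analysed here. Of the stay-green unigenes marked lower, CL6490.Contig6 had 1199 pooled plant alone counts, against 116.7 and 11.16 in plant alone 2 and 3. For CL6490.Contig5 it was 973.6 against 65.1 and 23.67, while Unigene4898 had 2610 against 652.8 and 861.2.

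Of the 4 related members, the glutamyl-tRNA reductase-binding protein (CL13338.Contig2), which anchors the reductase in the thylakoid in Arabidopsis, had 8.77 and 7.11 CPM in plant alone against 10.4, 26.7 and 10.1 CPM in co-culture. As a sum over its contigs it lay above plant alone in every co-culture library, as did 12.9% of all entries (log2 fold change 0.93 ± 0.54, edgeR adjusted p = 0.593). A relative of PTC52 (Unigene15754), an envelope protein named for a proposed role in importing protochlorophyllide reductase, had 30.9 and 20.2 CPM against 41.2, 82.2 and 15.2 CPM (edgeR adjusted p = 0.778), in the order of ChlH. An oxygen-independent coproporphyrinogen oxidase-like fragment (Unigene36784) stayed under 0.4 CPM in every library and was not tested.

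Genes of the pathway outside the naming words gave 63 unigenes, of which 54 were tested, 43 with a higher and 11 with a lower fitted level, where 50.1% of all unigenes were higher. Among them edgeR called 0, 2 had an unadjusted p under 0.05, both higher (2.75% of all unigenes), and DESeq2 called 2, both higher (0.916% of all). In synthesis, a unigene whose protein hit is uncharacterized but carries the KEGG identifier of the magnesium-protoporphyrin monomethyl ester cyclase (Unigene23781), the enzyme that forms the fifth ring, had 235 and 124 FPKM against 402, 556 and 131 FPKM. GUN4, a tetrapyrrole-binding protein that activates the chelatase, had 7.94 and 2.71 FPKM against 23.4, 50.2 and 2.41 FPKM, and the magnesium protoporphyrin IX methyltransferase 10.04 and 2.41 FPKM against 15.3, 41.1 and 2.86 FPKM. These neighbours of the chelatase had its order, with co-culture 3 at the level of plant alone 3. Other synthesis genes of this list did not. Protoporphyrinogen oxidase had 70 and 56.2 FPKM against 78.8, 55.45 and 44.5 FPKM, so co-culture 2 lay below both plant alone libraries. Delta-aminolevulinic acid dehydratase had 51.4 and 49.3 FPKM against 59.8, 70.8 and 53.3 FPKM, with co-culture 3 above both. The GLK transcription factors, known in Arabidopsis as activators of chlorophyll synthesis and antenna genes, summed to 74.8 and 41.8 FPKM against 97.6, 107 and 74.9 FPKM, so co-culture 3 was level with plant alone 2.

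On the heme side, which shares its early steps with chlorophyll, ferrochelatase, the enzyme that inserts iron, summed to 132 and 111 FPKM in plant alone and to 130, 177 and 117 FPKM in co-culture, with overlap. Heme oxygenase, which opens heme on the way to the phytochrome pigment, had 16.5 and 15.3 FPKM against 19.7, 33.8 and 26.9 FPKM, higher in every co-culture library. On the CPM scale 12.9% of all enzyme sums and clusters lay above plant alone in this way. The heme oxygenase sum includes unigenes whose hits are named probable inactive heme oxygenase 2. Geranylgeranyl diphosphate reductase, which supplies phytol, had 41.1 and 30.6 FPKM against 55.7, 85.6 and 18.7 FPKM, with co-culture 3 lowest as for ChlI. The words for GUN1 and for phytochrome interacting factors matched no unigene.

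In breakdown, chlorophyllase, which can remove phytol directly from chlorophyll, summed to 60 and 23.5 FPKM in plant alone and to 91.4, 134 and 87.4 FPKM in co-culture, all higher. Of all enzyme sums and clusters, 12.9% lay above plant alone in every co-culture library on the CPM scale. The chlorophyllase contig CL2224.Contig3 was 1 of the 2 called by DESeq2, with 5.96 and 3.40 FPKM against 11.1, 25.2 and 39.3 FPKM (log2 fold change 2.37 ± 0.62, DESeq2 adjusted p = 0.0342, edgeR adjusted p = 0.628), and co-culture 3 was its highest library. Red chlorophyll catabolite reductase, which acts after pheophorbide a oxygenase, had 20.1 and 9.52 FPKM against 22.6, 45.2 and 21.4 FPKM. It was also higher in every co-culture library, by a narrow margin over plant alone 2 (the same 12.9% share applies). The other DESeq2 call was a contig of TIC55, an enzyme that hydroxylates the breakdown product in Arabidopsis. This contig, CL5353.Contig3, had no reads in plant alone 2 and 3 or co-culture 1 and 18.8 and 4.97 FPKM in co-culture 2 and 3, and the TIC55 sum overlapped between groups, at 73.3 and 62.8 FPKM against 82.2, 148 and 64.5 FPKM. All 5 tested unigenes of chlorophyllase and all 4 of TIC55 had a higher fitted level in co-culture. So did all 3 each of red chlorophyll catabolite reductase and 7-hydroxymethyl chlorophyll a reductase, where 50.1% of all unigenes were higher. Many are contigs of shared clusters and may not be separate observations, and some values were near 0 (0.04 for CL6474.Contig1 of chlorophyllase). The 7-hydroxymethyl chlorophyll a reductase sum was lowest in co-culture 3, with 11 and 7.90 FPKM against 17.3, 22.95 and 4.45 FPKM. The stay-green sum had a lower fitted level, and none of these differences passed edgeR.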

How the data were processed

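RNA was extracted with a plant kit, fragmented, primed with random hexamers and sequenced on a BGISEQ-500, per the labels' protocols. Per the submitters' processing notes the tools were Bowtie2, RSEM and DESeq2, with no versions, and the assembler is not stated. The authors deposited, per library, RSEM expected counts and FPKM of each unigene with reads, per the file headers, with unigene names that end in _zju (left off here). A deposited table of the authors gives, per its header, counts pooled per group with their log2 ratio, p-value and q-value, and its name points to DEGseq.

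A unigene missing from a library was set to 0, and counts were rounded. The test was edgeR 4.0.16 (R 4.3.3): default low-count filter, TMM, quasi-likelihood F test, no replicate block, and Benjamini-Hochberg adjustment at 0.05 over the whole table, for unigenes and for a table with land plant members summed per enzyme and other unigenes per cluster. CPM values are TMM-scaled, from the first table for unigenes and the second for enzymes. Groups overlap or not on that scale unless FPKM is stated. The SE is the log2 fold change over the root of F. Alternatives were DESeq2 1.42.0, RLE size factors, no filter, the replicate block, limma 3.58.1 on log2(FPKM + 0.1) and log2(FPKM + 1), other sums for the ratio, and leaving out each library. The scripts were tested on simulated data.

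Named unigenes are the one of highest mean FPKM per enzyme, the 3 of smallest edgeR p per direction in synthesis and in breakdown, and any called; pathway contigs called by DESeq2 were named after their values were seen. Members and lists were chosen with earlier results of these data known, and the assignment of names to enzymes, the library-order counts and the omission of the stay-green fragment were set after member values had been seen. No sequence was read.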

Additional observations from a re-analysis of the deposited data

How the results depend on the processing

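No setting tried made edgeR or limma call a chlorophyll unigene, and none made edgeR or DESeq2 call an enzyme sum (limma was run on unigenes alone). DESeq2 called 1294 unigenes in place of 0, among them 1 member, and 816 enzyme sums and clusters, none a chlorophyll enzyme. Leaving out 1 library at a time, edgeR called between 0 and 230 entries (230 without co-culture 3). Members at an unadjusted p under 0.05 numbered 5 in edgeR, 8 in DESeq2, 8 in limma with a pseudocount of 1, and 2 to 18 when a library was left out. The breakdown median, 0.08, was -0.30 with the replicate block and -0.16 to 0.50 when a library was left out, and the synthesis median, 0.51, was 0.35 with the block and 0.16 to 0.94. The log2 difference of the synthesis to breakdown ratio, 1.12, was 0.35 and 0.31 with every member weighted alike (pseudocounts 0.1 and 1) and 0.74 to 1.70 when a library was left out. The replicate block uses numbers 2 and 3, since co-culture 1 has no partner. Correlations of deviations were 0.04 for number 2 and 0.07 for number 3. The deviations of the 2 plant alone libraries mirror each other, so these values cannot decide whether samples of 1 number belong together. In the labels they share only a number.

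In other settings than leaving out a library, no enzyme sum or named unigene turned its direction, and 15 of 20 sums and 27 of 32 tested named unigenes kept it also when a library was left out. Those that turned were the sums of glutamyl-tRNA reductase (-0.74 to 0.92), uroporphyrinogen-III synthase (-0.45 to 0.39), chlorophyllide a oxygenase (-0.45 to 0.39), NYC1 (-0.90 to 0.012) and pheophorbide a oxygenase (-0.47 to 0.025), and CL8382.Contig3 (-1.95 to 0.56), Unigene32987 (-0.43 to 0.34), CL4851.Contig6 (-4.25 to 6.13), CL13240.Contig3 (-0.14 to 0.91) and CL7723.Contig1 (-0.42 to 1.20). The causes were not tested. The SE of the synthesis and breakdown sums lay between 0.34 and 1.28 on the log2 scale, which sets the precision of these comparisons.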
